A study of Homo sapiens with 6 samples.

Results

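AP-1 is a family of paired transcription factors, and 10 of its genes and close relatives are described here in HCT116 human colorectal cancer cells: JUN, JUNB, JUND, FOS, FOSB, FOSL1, FOSL2, ATF3, BATF3 and MAFK. They are taken as a list of symbols, by a rule that uses no measured value, though the list was drawn up with earlier results of these data known, and are 10 of the 58395 genes listed in the count tables and 10 of the 15566 that hold enough counts to be tested. The study asks how gene expression differs when STBD1, a glycogen-binding protein linked to the autophagy of glycogen, is depleted. RNA is sequenced from 3 replicates of HCT116 cells carrying a non-target hairpin (shControl) and 3 carrying a hairpin against STBD1 (shSTBD1), with 1 library per replicate. Both hairpins are delivered by lentivirus and the infected cells are selected with an antibiotic. Each group has 1 hairpin in 1 parent cell line, so an effect of losing STBD1 and an effect of the hairpin on other RNAs cannot be told apart. The p-values below measure the spread between these libraries, since no source used here says whether the replicates come from separate transductions.

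AP-1 proteins bind DNA through a basic region and pair through a leucine zipper. Jun proteins can pair with each other or with a Fos protein, while Fos proteins need a Jun partner, and the pairs bind the TPA response element (TRE) or, with partners of the ATF class, the related cyclic AMP response element (CRE). FOS, FOSB, JUN, JUNB and ATF3 are immediate early or stress-inducible genes whose RNA is made fast and lost fast after growth factors, serum or damage, and FOSL1 is known as an AP-1 subunit of cells with active RAS and ERK signalling, such as HCT116.

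The promoters of these genes can themselves carry sites of the AP-1 and CREB/ATF class, so the 250 bases before each start in RefSeq (GRCh38.p14) are searched on both strands. Of the 10 genes, 7 are matched, with 8 windows, since ATF3 has windows at different starts. The TRE, TGACTCA, is in 4.2% of all 35116 windows and in none of the 8. The looser form TGACNTCA, which takes in the CRE TGACGTCA, is in 6.87% of all windows, in those of JUN and JUND, and in the upstream window of ATF3 only. The CRE itself is in 1.65% of all windows and in that of JUND, and TGACG alone, which the CRE also holds, is in 21.2% of all windows and in those of FOS, FOSB, FOSL2, JUN, JUNB and JUND. The 5 stretches shown hold the match of this kind in the 5 genes discussed most below, each of 60 bases on the strand of its gene, with the match in capitals. A match describes the letters only and is not a measured site.
JUN, chr1:58784081-58784140, minus strand: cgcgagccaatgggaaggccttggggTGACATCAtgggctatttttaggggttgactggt
JUNB, chr19:12791322-12791381, plus strand: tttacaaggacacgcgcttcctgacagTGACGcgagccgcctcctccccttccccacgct
JUND, chr19:18281789-18281848, minus strand: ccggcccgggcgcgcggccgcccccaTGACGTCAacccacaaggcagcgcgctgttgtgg
FOS, chr14:75278737-75278796, plus strand: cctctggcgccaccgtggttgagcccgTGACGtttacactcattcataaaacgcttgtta
ATF3, chr1:212565258-212565317, plus strand: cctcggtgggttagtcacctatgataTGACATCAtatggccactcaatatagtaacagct

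The libraries hold from 17689097 to 21668274 expected counts, which RSEM estimates and which can be fractional where a read fits several genes. Levels are given as CPM, counts scaled for library size with edgeR's TMM factors, and a gene is called when its p from edgeR's quasi-likelihood F-test is under 0.05 after Benjamini-Hochberg adjustment across the 15566 tested genes. STBD1, the targeted gene, is at 16.1, 15.7 and 14.4 CPM in shControl and at 11.6, 9.06 and 9.18 CPM in shSTBD1, a log2 fold change of -0.64 ± 0.098 (SE, n = 3 per group, edgeR adjusted p = 2.91e-04). RSEM's posterior SD, summed over the 6 libraries, is 8.37% of the summed STBD1 count, so part of its reads also fit other genes. For the 10 AP-1 genes that SD is at most 0.489% of the count. Of 10 colorectal epithelial markers, 9 are tested and 6 are higher in shSTBD1 (66.7% called, against 24.1% of all tested genes at their levels). Their summed level is 3040 to 3060 TPM (a level per length scaled to the library total) in shControl and 3440 to 3570 TPM in shSTBD1. VIL1 is the marker with too few counts to test. Of 15 markers of blood, stromal, endothelial, liver and muscle cells, 3 are tested and 1, CD68, is higher. Most of the summed level of these 15, 22.9 to 27.4 TPM in shControl and 29.7 to 33.0 TPM in shSTBD1, comes from stromal COL1A1. COL1A1 is at a mean of 34.9 CPM in shControl and 38.1 CPM in shSTBD1 and is not called (edgeR adjusted p = 0.25). PTPRC, CD3E and LUM are at 0 in every library. The part of these marker changes in the results below was not tested.

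Of the 10 AP-1 genes, 7 are higher in shSTBD1 and none is lower. The 7 are JUN, JUNB, JUND, FOS, FOSL1, FOSL2 and ATF3, and their libraries do not overlap between the groups. FOSB, BATF3 and MAFK are not called. Over all tested genes 15.8% are called, 8.22% higher and 7.54% lower, and 33.6% have groups that do not overlap, 17.4% with shSTBD1 above. At an unadjusted p under 0.05, the same edgeR test and DESeq2 also find 0 of the 10 lower. Over all 15566 tested genes, edgeR finds 2292 lower at that p and DESeq2 1671. Few of any 10 genes would be lower at such rates, so the 0 says little by itself. The changes are small: the median log2 fold change of the 10 is 0.199, against 0.0023 over all tested genes. Calls depend on the level of a gene, and among genes of 50 CPM or more 13.3% are called higher, against 5 of the 6 AP-1 genes at that level. In bulk RNA, more RNA per cell and a larger share of cells that express a gene cannot be told apart. Leaving out shSTBD1 replicate 1, or shControl replicate 2, leaves 4 calls in each case (JUN, JUNB, FOSL1 and ATF3), while DESeq2 calls 6 of the 10 and limma on log2(TPM + 1) calls 3.

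**Figure D1:**
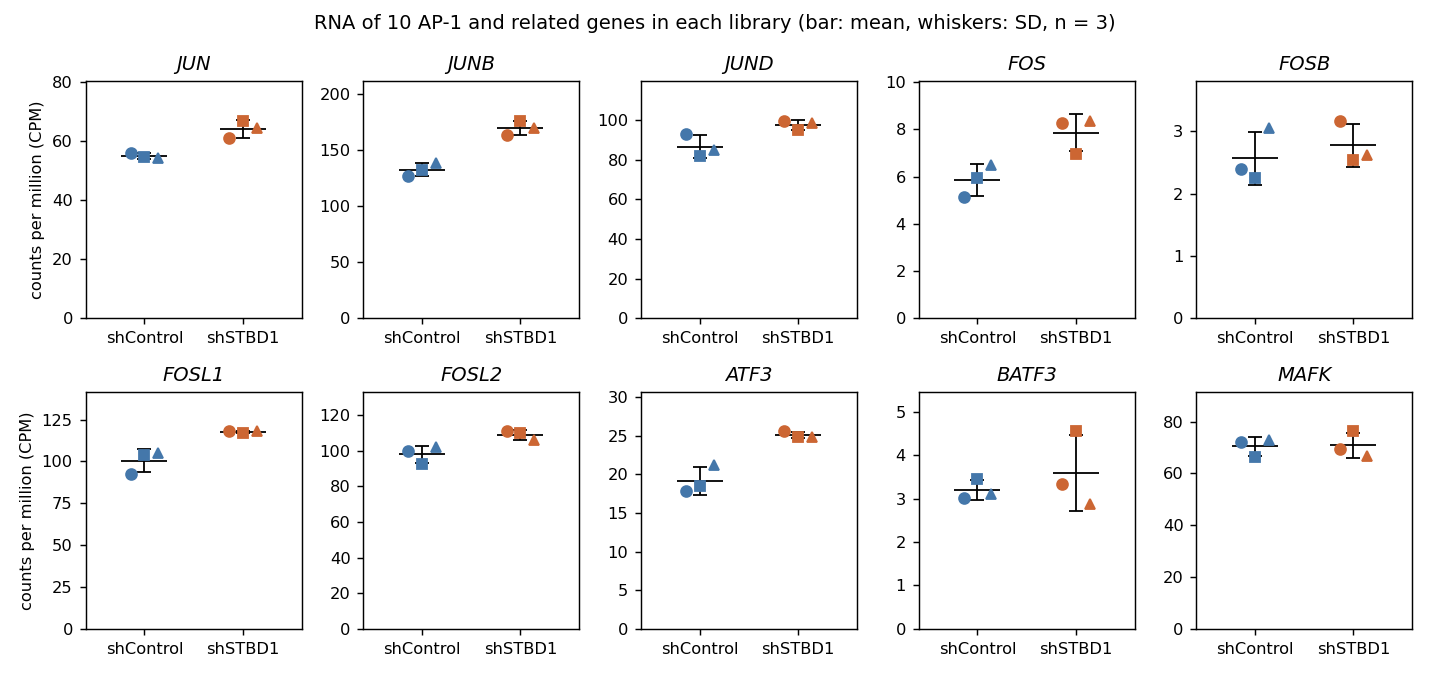
TMM-scaled counts in CPM (vertical axes, each from 0) of the 10 genes in the 3 shControl (blue) and 3 shSTBD1 (orange) libraries, with circles, squares and triangles for replicates 1, 2 and 3, a bar for the mean and whiskers for the SD. The shSTBD1 points lie above all shControl points for 7 genes, and the groups overlap for FOSB, BATF3 and MAFK.

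**Figure D2:**
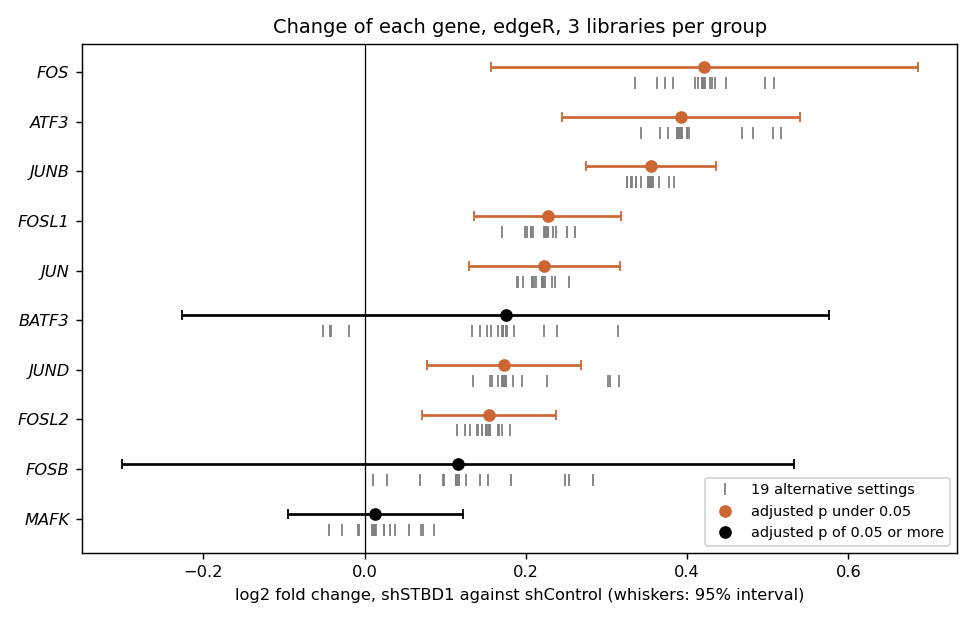
Log2 fold change of each gene, shSTBD1 against shControl (horizontal axis), with its 95% interval from edgeR and grey ticks for the value under each of 19 other settings of the analysis. The intervals of FOSB, BATF3 and MAFK take in 0, and the ticks lie on both sides of 0 for BATF3 and MAFK.

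Among the Jun genes, JUNB has the largest estimated change. JUNB, a Jun subunit that is a weaker activator than JUN on many promoters, is a single-exon gene at chr19:12791486-12793315 (GRCh38, plus strand). It stands at 127, 132 and 138 CPM in shControl and 163, 176 and 169 CPM in shSTBD1. The lowest shSTBD1 library is 25.2 CPM above the highest shControl library, a gap wider than the range within either group. JUNB thus rises by a log2 fold change of 0.36 ± 0.038 (SE, n = 3 per group, 95% interval 0.274 to 0.436, edgeR adjusted p = 7.81e-06), which is 1.28-fold. By p-value JUNB ranks 134 of the 15566 tested genes, and it is called under each of the 19 other settings tried. HOOK2, on the opposite strand, overlaps JUNB and has 7519 counts over the 6 libraries against 17817 for JUNB. No source used here says if strand was used in the counting, and without it the reads of the shared stretch cannot be told apart.

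JUN, the founding subunit and the main target of the JNK kinases, lies at chr1:58776845-58784048 (minus strand). Its main annotated (canonical) transcript has 1 exon and 3257 bases, fewer than the span of the gene. It is at 55.9, 54.6 and 54.0 CPM in shControl and 60.9, 66.8 and 64.2 CPM in shSTBD1. The shControl libraries lie within a narrow band and every shSTBD1 library is above it. The mean is 54.9 ± 0.972 CPM in shControl and 64.0 ± 2.96 CPM in shSTBD1 (SD, n = 3), and the log2 fold change is 0.22 ± 0.045 (SE, edgeR adjusted p = 0.00271). JUN keeps its call whichever library is left out. Limma on log2(TPM + 1) gives JUN a log2 difference of 0.19 and does not call it (adjusted p = 0.15). That setting calls 292 genes in all, against 2453 in the main fit, and the cause of the lost call was not tested.

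JUND, the Jun subunit that is steadily expressed in many resting cells, is also a single-exon gene, at chr19:18279694-18281622 (minus strand). It is at 93.2, 82.1 and 84.8 CPM in shControl and 99.8, 94.9 and 98.6 CPM in shSTBD1. The groups do not overlap, but the gap is only 1.68 CPM, since shControl replicate 1 is close to the lowest shSTBD1 library. Its log2 fold change is 0.17 ± 0.045 (SE, n = 3 per group, edgeR adjusted p = 0.0151). It is not called when shControl replicate 2 (0.13, adjusted p = 0.069), shControl replicate 3 (0.16, 0.062), shSTBD1 replicate 1 (0.16, 0.078) or shSTBD1 replicate 3 (0.17, 0.064) is left out.

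The size of the JUND change also depends on the length that RSEM gives it. Its effective length is 873, 796 and 852 bases in shControl and 753, 783 and 731 bases in shSTBD1. The shSTBD1 values are all lower, which raises the level per length in that group. In TPM, JUND is therefore at 118 ± 3.31 in shControl and 146 ± 9.02 in shSTBD1 (SD, n = 3), and with offsets for effective length its log2 fold change is 0.32 rather than 0.17. The effective length of JUN, from 3258 to 3267 bases, and that of JUNB, from 1538 to 1547 bases, hardly vary.

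Among the Fos genes, FOS has the largest estimated change and, of the 4, the fewest counts after FOSB. FOS, the inducible subunit that gives the family its name, lies at chr14:75278826-75282230 (plus strand, 4 exons). It is at 5.14, 5.94 and 6.5 CPM in shControl and 8.26, 6.94 and 8.37 CPM in shSTBD1, from 99 to 166 counts per library. The groups do not overlap, and shSTBD1 replicate 2 is only 0.448 CPM above the highest shControl library. The log2 fold change is 0.42 ± 0.13 (SE, n = 3 per group, 95% interval 0.157 to 0.686, edgeR adjusted p = 0.0305), or 1.34-fold. DESeq2 gives the same size, 0.42, with an adjusted p of 0.068. The call is also lost without shControl replicate 1 (log2 fold change 0.34, adjusted p = 0.085), shControl replicate 2 (0.43, 0.056), shSTBD1 replicate 1 (0.38, 0.11) or shSTBD1 replicate 3 (0.37, 0.12).

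FOSL1, which encodes FRA1, lies at chr11:65892049-65900573 (minus strand, 4 exons) and is the most abundant Fos gene of these cells. It is at 92.6, 104 and 105 CPM in shControl and 118, 117 and 118 CPM in shSTBD1. The shSTBD1 libraries are nearly equal, with an SD of 0.907 CPM, while shControl replicate 1 is lower than the other two of its group. FOSL1 rises by a log2 fold change of 0.23 ± 0.043 (SE, n = 3 per group, edgeR adjusted p = 0.00189), and it ranges from 0.17 to 0.26 when 1 library is left out, with the call kept each time. Limma on log2(TPM + 1), which calls fewer genes in all, does not call FOSL1 (difference 0.20, adjusted p = 0.19). The effective length of FOSL1 is 1291 to 1324 bases, and the cause of the lost call was not tested.

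FOSL2, which encodes FRA2 and has the longest 3' UTR of the 10 (4869 bases), lies at chr2:28392448-28417317 (plus strand, 4 exons). It is at 99.7, 92.7 and 102 CPM in shControl and 111, 110 and 106 CPM in shSTBD1. Its log2 fold change is 0.15 ± 0.039 (SE, n = 3 per group, edgeR adjusted p = 0.0138), or 1.11-fold, the smallest of the 7 called. It is not called without shControl replicate 2 (0.12, adjusted p = 0.064), shSTBD1 replicate 1 (0.14, 0.072) or shSTBD1 replicate 2 (0.15, 0.065).

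FOSB, the neighbour of ERCC1 at chr19:45467995-45475179 (plus strand), is the Fos gene best known for its stable short form in neurons. It is at 2.39, 2.25 and 3.05 CPM in shControl and 3.17, 2.53 and 2.62 CPM in shSTBD1, from 46 to 58 counts per library. The groups overlap, and the log2 fold change is 0.12 ± 0.20 (SE, n = 3 per group, 95% interval -0.301 to 0.532, edgeR adjusted p = 0.746). A change of the size estimated for FOS lies inside that interval. Leaving out 1 library moves the value from 0.011 (without shSTBD1 replicate 1, adjusted p = 0.98) to 0.25 (without shControl replicate 3, adjusted p = 0.51). ERCC1 lies on the opposite strand and overlaps FOSB with 6175 counts over the 6 libraries against 312 for FOSB, so the FOSB value is uncertain if strand was not used.

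ATF3, a stress-induced factor that pairs with Jun proteins or with itself and can repress its targets, has a larger estimated change than every other gene of the 10 but FOS. It lies at chr1:212565334-212620777 (plus strand, 4 exons). It is at 17.8, 18.5 and 21.2 CPM in shControl and 25.6, 24.9 and 24.9 CPM in shSTBD1. The shSTBD1 libraries are close together, and the lowest is 3.63 CPM above shControl replicate 3, the highest of its group. The log2 fold change is 0.39 ± 0.070 (SE, n = 3 per group, 95% interval 0.245 to 0.54, edgeR adjusted p = 0.00108), or 1.31-fold. ATF3 is called under each of the 19 other settings, with log2 fold changes from 0.34 to 0.52.

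BATF3, a partner of Jun proteins best known from dendritic cells, lies at chr1:212686417-212699840 (minus strand, 3 exons), on the same arm of chromosome 1 as ATF3. It is at 3.01, 3.45 and 3.11 CPM in shControl and 3.34, 4.55 and 2.87 CPM in shSTBD1, with both the lowest and the highest value in shSTBD1. The log2 fold change is 0.18 ± 0.19 (SE, n = 3 per group, 95% interval -0.226 to 0.576, edgeR adjusted p = 0.586). In TPM its mean is 5.71 in shControl and 5.57 in shSTBD1, and the log2 change is -0.042 by limma on log2(TPM + 1), so its direction is not settled.

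MAFK, a small MAF protein without an activation domain that pairs with NRF-type factors and BACH proteins, lies at chr7:1530702-1543043 (plus strand, 3 exons). It is at 72.1, 66.4 and 72.8 CPM in shControl and 69.6, 76.3 and 66.9 CPM in shSTBD1, and the groups overlap. The log2 fold change is 0.013 ± 0.051 (SE, n = 3 per group, 95% interval -0.0951 to 0.122, edgeR adjusted p = 0.9). That interval ends below the change estimated for each of the 7 called genes, the smallest being 0.15 for FOSL2, but the difference between MAFK and these genes was not tested. TMEM184A overlaps MAFK on the opposite strand with 4305 counts over the 6 libraries.

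Levels of different genes are compared in TPM, which divides by length. In shControl the order runs from JUND at 118 TPM through JUNB at 98.3, FOSL1 at 88.5, MAFK at 26.6, JUN at 19.2, FOSL2 at 17.5, ATF3 at 14.8, BATF3 at 5.71 and FOS at 4.2 to FOSB at 0.977 TPM (means, n = 3). The libraries of JUNB and FOSL1 overlap, and no other neighbours in the order do. In shSTBD1 the mean of ATF3, 21.1 TPM, lies above that of FOSL2, 19.1 TPM. JUND is above 93.7% of all tested genes, JUN above 62.6%, FOS above 30.3% and FOSB above 11.7%. JUND, JUNB and FOSL1 thus have the highest TPM of the 10, well above the classical JUN and FOS. The place of JUND depends on its effective length of 731 to 873 bases, against an annotated transcript of 1929 bases. In CPM, not divided by length, the shControl mean of JUND (86.7) is below those of JUNB (133), FOSL1 (100) and FOSL2 (98.0).

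**Figure D3:**
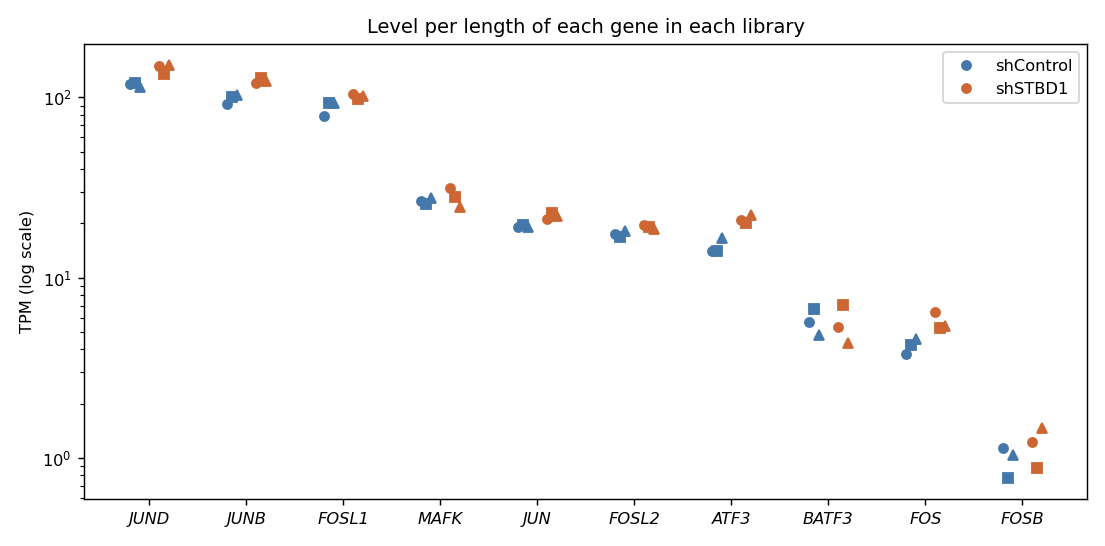
Level per length of the 10 genes in TPM (vertical axis, log scale) in each shControl (blue) and shSTBD1 (orange) library, ordered by the shControl mean, with circles, squares and triangles for replicates 1, 2 and 3. JUND, JUNB and FOSL1 stand apart from the other 7 genes in both groups, and FOSB is lowest.

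These levels also give the make-up of Jun and Fos RNA, while the AP-1 proteins and their pairs are not measured in these data. The summed level of JUN, JUNB and JUND is 235 ± 5.3 TPM in shControl and 291 ± 5.2 TPM in shSTBD1 (SD, n = 3, ratio 1.24). The size of that rise depends on the effective lengths, which for JUND are shorter in shSTBD1. With 1 length per gene, the mean over the 6 libraries, the Jun sums are 240 ± 4.3 and 285 ± 2.9 on the same scale (ratio 1.19), and they still do not overlap. That of FOS, FOSB, FOSL1 and FOSL2 is 111 ± 8.4 TPM in shControl and 127 ± 3.7 TPM in shSTBD1 (ratio 1.15). Neither sum overlaps between the groups, and each gives p = 0.1 in the exact two-sided permutation test, the smallest that 3 libraries against 3 allow. The Fos to Jun ratio is 0.472 ± 0.028 in shControl and 0.437 ± 0.0092 in shSTBD1, and the groups overlap (exact permutation p = 0.2).

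Within each family the shares in TPM move little. FOSL1 makes up 79.6% of Fos RNA in both groups (exact permutation p = 1.0), and JUNB 41.7 ± 1.8% and 42.4 ± 1.9% of Jun RNA (SD, n = 3, exact permutation p = 0.7). The JUNB result depends on the lengths. With 1 length per gene in all libraries the JUNB share is 40.7 ± 2.2% in shControl and 43.6 ± 1.3% in shSTBD1, without overlap (exact permutation p = 0.1). The JUNB to JUND ratio, which overlaps in TPM, is then 0.794 ± 0.076 and 0.897 ± 0.058, without overlap. The share of FOS in Fos RNA is 3.71%, 3.71% and 3.91% in shControl and 4.94%, 4.26% and 4.19% in shSTBD1. The share of JUN in Jun RNA is 8.31%, 8.13% and 8.06% in shControl and 7.26%, 8.0% and 7.46% in shSTBD1. Neither of these shares is separate once each gene has 1 length in all libraries: FOS is then at 3.82 ± 0.22% and 4.4 ± 0.4% (exact permutation p = 0.2) and JUN at 7.96 ± 0.17% and 7.78 ± 0.3% (exact permutation p = 0.4), with overlap in both. The JUNB to JUN ratio is 5.11 ± 0.3 in shControl and 5.6 ± 0.068 in shSTBD1, and it does not overlap with either kind of length (exact permutation p = 0.1, the smallest possible). In all, 18 sums, shares and ratios in TPM were computed and 9 do not overlap, so with this smallest p none could pass an adjustment over them.

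Features outside the expression values are shared by several of the 10. All 10 have a GC content above the median of the tested genes, with a median of 58.2% against 49.3%. The canonical transcripts of JUN, JUNB and JUND have 1 exon. The AU-rich pentamer ATTTA, found in the 3' UTR of many short-lived mRNAs, is in the 3' UTR of all 10, from 1 copy in JUND, FOSL1 and BATF3 to 9 copies in FOSL2, and also in 71.9% of the 13036 tested genes with an annotated 3' UTR.

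The genes around AP-1 are described through 6 lists, by counts beside the 15.8% called over all genes. The lists were chosen with earlier results of these data known, so their called shares are descriptions and not independent evidence. Since 28.0% of genes at 50 CPM or more are called, 16.8% at 10 to 50 CPM and 4.26% below, the share of all genes called at the levels of each list, averaged over its genes, is given as well. Of 31 immediate early genes other than the 10, all are tested, 15 are higher in shSTBD1 and 1 is lower (51.6% called, against 19.4% at these levels, median log2 fold change 0.22). ZFP36, which encodes an mRNA-destabilizing protein that binds AU-rich elements, is at 27.9, 32.0 and 32.5 CPM in shControl and 48.8, 48.4 and 51.7 CPM in shSTBD1. Its log2 fold change is 0.69 ± 0.058 (SE, n = 3 per group, edgeR adjusted p = 6.7e-07), a larger estimate than for any of the 10 AP-1 genes. IER3, a stress-inducible survival gene, changes by 0.54 ± 0.05 (adjusted p = 1.6e-06 by edgeR). MCL1, an anti-apoptotic BCL2 relative, is the 1 gene called lower (-0.17 ± 0.03, adjusted p = 0.0012 by edgeR, and 0.052 by limma on log2(TPM + 1)). Other genes of the list, such as CCN2 (-0.64 ± 0.27, edgeR adjusted p = 0.13), have negative estimates without a call.

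The other bZIP partners, which compete for or share the partners of AP-1, are called in both directions. Of 17 genes, 15 are tested, 1 is higher and 4 are lower (33.3% called, against 13.9% at these levels, median -0.071). MAFF, a small MAF like MAFK, is the 1 called higher (0.29 ± 0.075, edgeR adjusted p = 0.015, and 0.23, 0.28 and 0.27 with adjusted p of 0.068, 0.068 and 0.063 without shControl replicate 2, shSTBD1 replicate 2 or shSTBD1 replicate 3). JDP2, a Jun partner that acts as a repressor, is lower (-0.39 ± 0.1, edgeR adjusted p = 0.015, and not called without shControl replicate 2, shSTBD1 replicate 1 or shSTBD1 replicate 2, at adjusted p of 0.071, 0.061 and 0.07 and log2 fold changes of -0.32, -0.37 and -0.36). NFE2L3, a factor of the NRF group that pairs with small MAF proteins, is also lower (-0.23 ± 0.047, edgeR adjusted p = 0.0033). The number called is 2 without shControl replicate 2, 2 without shSTBD1 replicate 2 and 3 without shSTBD1 replicate 3.

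The upstream kinases and serum-response factors show few calls, with 25 of 26 tested, 3 higher and 1 lower (16.0% called, against 23.3% at these levels, median -0.0063). SRF, which drives FOS and EGR1 through the serum response element, is higher (0.23 ± 0.047, edgeR adjusted p = 0.0031). SRF is also in the immediate early list and is counted there too. RPS6KA2, a kinase downstream of ERK, is lower (-0.64 ± 0.12, edgeR adjusted p = 0.002). Without shControl replicate 3, and likewise without shSTBD1 replicate 3, 2 genes are called.

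Inhibitors and turnover factors of the pathway are called in both directions, 4 higher and 3 lower of 20 tested (35.0% called, against 19.9% at these levels, median -0.038). ZFP36, which is in this list too, and FBXW7, a ubiquitin ligase subunit that targets JUN protein, are higher. FBXW7 changes by 0.20 ± 0.054 (edgeR adjusted p = 0.018), by 0.20 with DESeq2 (adjusted p = 0.06) and by 0.16 (adjusted p = 0.1) without shSTBD1 replicate 3. DESeq2 calls 4 genes of the list, as does the fit without that library. DUSP6 (-0.31 ± 0.043, edgeR adjusted p = 1.1e-04) and DUSP4 (-0.22 ± 0.033, edgeR adjusted p = 2.1e-04), phosphatases that inactivate ERK and are themselves induced by it, are lower. DUSP5, a phosphatase of the same list, is higher (0.17 ± 0.038, edgeR adjusted p = 0.0054). The other DUSP genes of the list are not called, so these phosphatases do not change as a class.

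Known AP-1 target genes also change in both directions. Of 31, 23 are tested, 4 are higher and 4 are lower (34.8% called, against 20.4% at these levels, median 0.051). AREG, the EGF receptor ligand amphiregulin, is at 299, 368 and 343 CPM in shControl and 509, 521 and 524 CPM in shSTBD1 (log2 fold change 0.62 ± 0.052, edgeR adjusted p = 6.3e-07). KRT18, a simple epithelial keratin that is also among the epithelial markers, is higher as well (0.20 ± 0.031, edgeR adjusted p = 3.6e-04). CCND1, which encodes cyclin D1, is at 647, 561 and 562 CPM in shControl and 449, 439 and 432 CPM in shSTBD1 (-0.42 ± 0.045, edgeR adjusted p = 7e-06). LIF, a cytokine of the IL6 family, falls too (-0.34 ± 0.046, edgeR adjusted p = 1.1e-04).

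The stress genes that usually accompany ATF3 are likewise divided, with 15 of 17 tested, 4 higher and 4 lower (53.3% called, against 22.7% at these levels, median -0.0029). CDKN1A, the p53-induced inhibitor of cyclin-dependent kinases (0.45 ± 0.031, edgeR adjusted p = 6.9e-08), and DDIT4, an inhibitor of mTORC1 (0.29 ± 0.031, edgeR adjusted p = 6.6e-06), are higher. CHAC1, a glutathione-degrading enzyme (-0.64 ± 0.093, edgeR adjusted p = 1.7e-04), and ASNS, asparagine synthetase (-0.59 ± 0.034, edgeR adjusted p = 1.3e-08), both targets of ATF4, are lower. The list has 5 calls without shSTBD1 replicate 1 and 5 without shSTBD1 replicate 3.

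**Figure D4:**
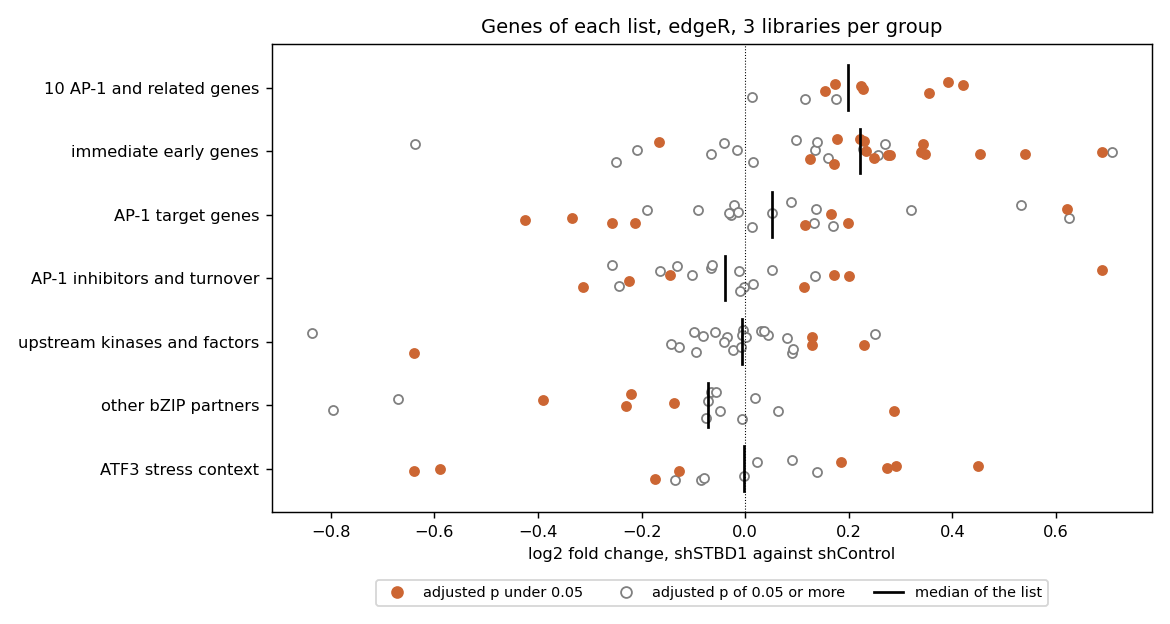
Log2 fold change, shSTBD1 against shControl (horizontal axis), of every tested gene among the 10 AP-1 and related genes and in 6 lists around them, filled where the edgeR adjusted p is under 0.05, with a bar at the median of each list. The medians are 0.199 for the 10 genes and 0.22 for the immediate early genes, and lie between -0.071 and 0.051 for the other 5 lists.

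The 5 genes whose log2 CPM follows FOS most closely over the 6 libraries, among 10123 genes of at least 10 CPM on average, are PFDN4 (Pearson r = 0.995), RGS10 (0.994), CLDN7 (0.989), EXOSC3 (0.989) and TRAPPC4 (0.984). With 6 libraries in 2 groups and this many genes compared, values this high describe the libraries only. None of the 5 is an AP-1 gene.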

How the data were processed

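RNA-seq of 3 shControl and 3 shSTBD1 HCT116 libraries, grouped by their labels, was used. According to the methods and labels, the authors cleaned the reads, aligned them to Hg38 (STAR 2.7.1a, gene models of Ensembl) and quantified genes by RSEM 1.3.1. For each gene the authors deposited RSEM's expected count, not normalized, and TPM, scaled by the authors to 1 total per library. The deposited effective length and posterior SD served for checks. Whether the counting used strand is not given in the sources used here.

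Expected counts were rounded and filtered with filterByExpr, which left 15566 genes, then scaled by TMM (factors from 0.979 to 1.009, totals from 17689097 to 21668274) and compared by the quasi-likelihood F-test of edgeR 4.0.16 (R 4.3.3) without covariates. P-values were adjusted by Benjamini-Hochberg over all tested genes and called under 0.05. Each SE is the absolute log2 fold change over the square root of F. Summed TPM and ratios were compared by the exact two-sided permutation test. The alternatives used DESeq2 1.42.0, limma 3.58.1 on log2 TPM, other scalings, filters and offsets, a replicate block and leaving out each library. Sums and shares at 1 effective length per gene and called shares at matched levels were added after the data were seen. Scripts were tested on simulated data.

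Positions, exons, GC content and 3' UTRs come from GENCODE on GRCh38, whose release is later than the authors' Ensembl models, and promoter windows from RefSeq GRCh38.p14. Positions are those of the gene, while exons, GC content and 3' UTRs are those of its canonical transcript. The 10 members and the lists were chosen with earlier results of these data known. Named genes are the 10, STBD1, and in each list the 2 largest called increases and the 2 largest called decreases, plus the 5 genes closest to FOS, the called member with the largest increase. A list gene that this rule names is not reported here. Single marker genes and DUSP5 were named after their values were seen.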

Additional observations from a re-analysis of the deposited data

How the results depend on the processing

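JUNB and ATF3 are called under all 19 alternatives, JUN and FOSL1 under 16, JUND under 15, FOSL2 under 13, FOS under 11, and FOSB, BATF3 and MAFK under none. The median log2 fold change of the 10 genes stays between 0.19 and 0.25. With effective length offsets, 511 genes in all are called, 3 of the 10 AP-1 genes (JUNB, JUND and ATF3), 0 other bZIP partners, 0 upstream kinases and factors, 2 inhibitors, 7 immediate early genes, 4 AP-1 targets and 4 ATF3 stress genes. Limma on log2(TPM + 1) calls 292, 3, 0, 0, 2, 4, 4 and 4 in that order, and on log2(TPM + 0.1) 290, 3, 0, 0, 2, 4, 4 and 4. At an unadjusted p under 0.05, the bZIP list has 4 genes with edgeR under these offsets and 3 with limma, and the kinase list 6 with each, while DESeq2 on counts calls 5 and 3. Limma on TPM also loses the calls of STBD1 (adjusted p of 0.065 and 0.067) and MCL1 (0.052 and 0.055), and these 3 settings those of MAFF, JDP2, NFE2L3, SRF, RPS6KA2, FBXW7, DUSP6 and LIF. The cause of the lower counts was not tested. DESeq2 calls 4 inhibitors. Leaving out 1 library gives 1409 to 2577 genes in all, 4 to 6 AP-1 genes, 2 to 5 bZIP partners, 2 to 4 kinases and factors, 4 to 7 inhibitors, 11 to 15 immediate early genes, 7 to 10 AP-1 targets and 5 to 9 ATF3 stress genes. In TPM with 1 effective length per gene, which was added once the data had been seen, the Jun sum ratio is 1.19 rather than 1.24 and the JUN share differs by -0.18 rather than -0.6 percentage points. The JUNB share then differs by 2.9 rather than 0.71 percentage points. BATF3 turns negative with effective length offsets (-0.019), limma on log2(TPM + 1) (-0.042) and log2(TPM + 0.1) (-0.051) and without shSTBD1 replicate 2 (-0.043). MAFK does so with GC offsets (-0.0078), the replicate block with GC offsets (-0.0072), without shControl replicate 2 (-0.028) and without shSTBD1 replicate 2 (-0.044), and the highest value when 1 library is left out is 0.31 for BATF3 and 0.055 for MAFK. The cause of these turns was not tested.

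A fit with a replicate block calls 7 of the 10 AP-1 genes, 2579 genes in all and 17 immediate early genes. Deviations of same-numbered libraries correlate at 0.071, 0.068 and -0.0084, so the numbers do not establish a pairing. FOS, FOSB and BATF3 have 46 to 166 counts per library, which limits what can be seen for them.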
